A study of Mus musculus with 9 samples.

Results

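The Cry2 knockdown was compared with the Cry1 knockdown in differentiating C2C12 cells, mouse myoblasts kept as a line, which fuse into myotubes once growth serum is replaced. The members were the 6 knockdown libraries of the 9 in the series: those labelled Cry1 knockdown and those labelled Cry2 knockdown, each at days 0, 3 and 5, paired by day. The other 3 libraries were the control, labelled Neg in their titles, at the same days. All cells grew in fetal bovine serum and were moved on day 0 to horse serum with insulin, transferrin and selenium. All 9 libraries are polyA RNA, made with a kit that does not keep strand. How the knockdowns were made is not given in the labels, nor is whether a culture was 1 clone.

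CRY1 and CRY2 are the cryptochromes, proteins that join PER proteins and repress the transcription factors CLOCK and BMAL1, which bind E-box DNA words and drive, among others, the Per and Cry genes themselves. In myoblasts, withdrawal of growth signals is followed by cell cycle exit, induction of MYOG and MEF2 factors, fusion and build-up of the contractile apparatus. The series title ties CRY2 to the RNA-binding protein BCLAF1 and to the mRNAs of Ccnd1 and Tmem176b. A direct comparison of the knockdowns asks which transcripts differ between them. By itself it does not tell in which knockdown a transcript left the level of the control.

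The 6 knockdown libraries held 4731020 to 6402164 counts and 17185 to 18049 detected genes. Where no read was counted, the level could still reach that of 3 counts, 0.469 to 0.634 CPM (counts scaled to a common library size), by counting error alone. Each genotype and day had 1 library. The test therefore set the difference between knockdowns against the disagreement between days over all genotypes, the control included. A culture difference shared by all 3 days of a knockdown cannot be told apart from the knockdown. In bulk RNA, fewer cells of a type and less RNA per cell cannot be told apart either. The muscle markers were present in every library: desmin (Des), the muscle intermediate filament, was at 1634 to 4215 CPM in the knockdowns, and Myod1, the myogenic master factor, at 82.5 to 158 CPM.

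Of 13094 genes tested, 1038 differed between the knockdowns at an adjusted p under 0.05 in edgeR's quasi-likelihood test (7.93%). Of these, 555 were higher in the Cry2 knockdown (4.24% of genes tested) and 483 lower (3.69%). The median log2 fold was 0.64 among the genes called higher, -0.63 among those called lower and -0.02 over all genes. In 140 genes the knockdowns differed over 2-fold upward, and in 151 over 2-fold downward. The sign was the same within all 3 days for 1010 of the 1038. The 3 values of one knockdown did not overlap the 3 of the other for 392 of the called genes, and for 8.23% of all genes tested. When each of the 9 libraries was left out in turn, 188 genes kept their call in every fit. With the Cry1 knockdown of day 0, 3 or 5 left out, 572, 258 and 373 genes passed. With the Cry2 knockdown of these days left out, 552, 349 and 401 passed. With DESeq2 in place of edgeR, 660 passed, and without the day term edgeR called 0 genes, 567 having an unadjusted p under 0.05.

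**Figure D1:**
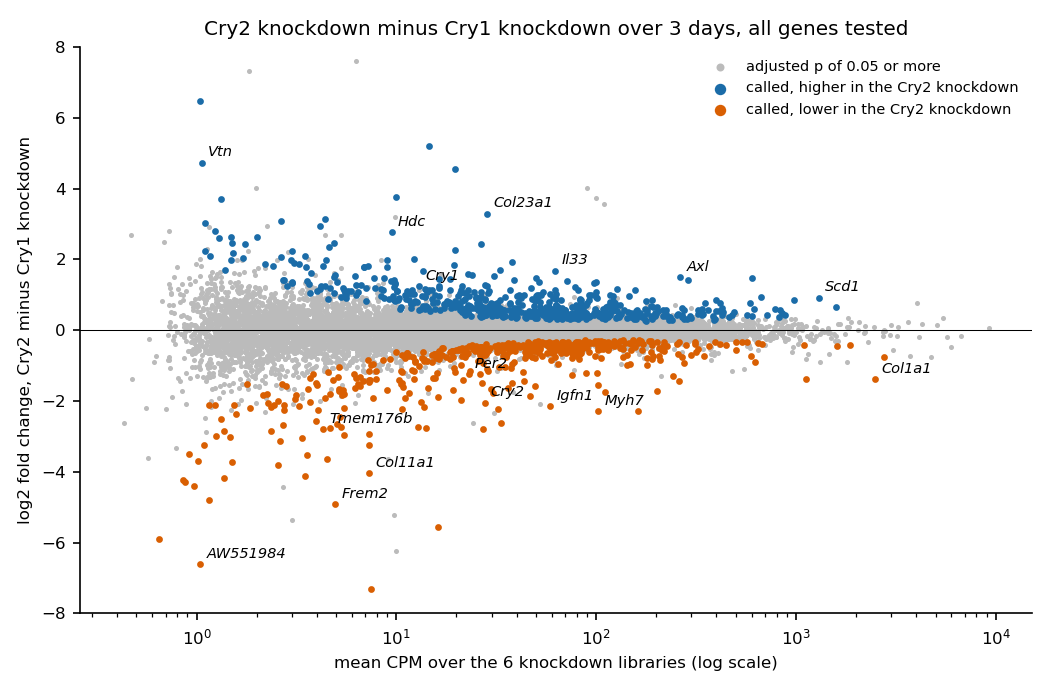
Each point is 1 of the 13094 genes tested, with its mean CPM over the 6 knockdown libraries on a log axis and its log2 fold of the Cry2 minus the Cry1 knockdown over 3 days. Blue and orange points are the 555 and 483 genes called higher and lower in the Cry2 knockdown, and 3 points lie outside the vertical axis.

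The called genes were also described by their course in the control and their length. Among genes with a mean of at least 1 CPM in the control, 25.1% of those called lower were at least 2-fold higher in the control at both day 3 and day 5 than at day 0. This share was 12.9% among the genes called higher and 9.0% over all genes. The median annotated exon length was 5474 bases for the genes called lower, 4251 for those called higher and 4281 for all.

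The knockdown of each cryptochrome was visible in its own transcript. Cry2 (chr2:92403646-92434043 of mm10, minus strand) stood at 28.8, 37.1 and 68.0 CPM at days 0, 3 and 5 of the Cry1 knockdown and at 7.27, 8.26 and 16.6 CPM in the Cry2 knockdown. The groups did not overlap, and the log2 fold was -2.05 ± 0.17 (SE, edgeR adjusted p = 0.00126). Cry1 (chr10:85131700-85185064, minus strand) stood at 8.30, 6.65 and 8.12 CPM in the Cry1 knockdown and at 13.1, 19.3 and 22.9 CPM in the Cry2 knockdown. These groups did not overlap either, the day 0 pair being the closest, with a log2 fold over the days of 1.24 ± 0.22 (SE, edgeR adjusted p = 0.0141). The control held 20.5, 15.8 and 17.4 CPM of Cry1 and 19.2, 39.7 and 48.9 CPM of Cry2. Per kilobase of exon, the Cry1 knockdown held 4.55 to 10.8 CPM of Cry2 and 1.99 to 2.49 CPM of Cry1. In the Cry2 knockdown these levels were 1.15 to 2.63 CPM per kilobase of Cry2 and 3.92 to 6.85 of Cry1. The call of Cry2 held without each of the 9 libraries. That of Cry1 ended when a knockdown library of day 3 or day 5 was left out, with an adjusted p of up to 0.0721.

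Of 15 clock repressors and E-box outputs, 1 was called higher in the Cry2 knockdown and 4 lower, where 7.93% of all genes were called in either direction. The median log2 fold of the list was -0.07. The genes called were Cry1, Cry2, Per2, Per1 and Tef, so both targeted genes are among them. Per2, a repressor that works in a complex with cryptochromes (chr1:91415982-91459324, minus strand), stood at 29.5, 28.9 and 38.0 CPM in the Cry1 knockdown. It stood at 11.6, 10.2 and 19.8 CPM in the Cry2 knockdown and at 7.77, 10.2 and 19.3 CPM in the control. All 3 values of the Cry1 knockdown lay above all others, and those of the Cry2 knockdown overlapped the control. The log2 fold between knockdowns was -1.25 ± 0.17 (SE, edgeR adjusted p = 0.00527), and the call held without each library.

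Per1, the paralog of Per2, was at 40.5, 43.7 and 49.1 CPM in the Cry1 knockdown against 32.5, 27.1 and 34.6 CPM in the Cry2 knockdown, without overlap (log2 fold -0.50 ± 0.10, SE, edgeR adjusted p = 0.0210). Tef, a leucine zipper factor of the clock output, was at 148.5, 229 and 295 CPM against 89.3, 140 and 225 CPM, lower within each day though the groups overlapped (log2 fold -0.61 ± 0.10, SE, edgeR adjusted p = 0.0108). Leaving out the day 3 library of either knockdown ended both calls, and leaving out either day 5 library ended that of Per1 as well, with an adjusted p of up to 0.0997. Nr1d1, the gene of the REV-ERB alpha repressor, did not pass, with a log2 fold of 0.36 ± 0.12 (SE, edgeR adjusted p = 0.102).

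Among 15 clock activators and cryptochrome regulators, 1 was called lower and none higher, a share of 6.67%. That gene was Rora, a nuclear receptor that activates Bmal1, at 5.48, 6.82 and 17.5 CPM in the Cry1 knockdown and 2.91, 1.69 and 9.26 CPM in the Cry2 knockdown. Its log2 fold was -1.14 ± 0.27 (SE, edgeR adjusted p = 0.0370), but only the fit without the control library of day 3 kept the call. Adjusted p reached 0.131 in the fits without 1 library, and DESeq2 called 0 genes of the list, with 1 at an unadjusted p under 0.05. Clock, the partner of BMAL1, had a log2 fold of -0.13 ± 0.07 and did not pass (SE, edgeR adjusted p = 0.319).

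Because cryptochromes act on E-box factors, promoter sequences were read for the 12 of these 15 repressors and outputs that the RefSeq table for GRCm38.p6 holds. The window ran from 250 bases before to 50 after a start site, and the word searched was CACGTG, which reads the same on both strands. It occurred in 5 of the 12 genes (41.7%), in 7.15% of all 32851 windows and in 11.9% of the 9490 tested genes with a window. Of genes called higher it occurred in 14.8%, and of those called lower in 12.9%. No match was found for Cry2 or Per2, which were also called, and which genes of the list lacked a window is not given here. The following 30-base stretches are those of Per1, Cry1 and Tef, the called genes of the list with a match. They run 5′ to 3′ on the gene's strand, with the word in capitals.
Per1, chr11:69098771-69098800, plus strand: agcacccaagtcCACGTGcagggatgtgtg
Cry1, chr10:85185097-85185126, minus strand: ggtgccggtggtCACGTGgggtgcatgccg
Tef, chr15:81802534-81802563, plus strand: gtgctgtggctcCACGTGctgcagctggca
Tef, chr15:81811264-81811293, plus strand: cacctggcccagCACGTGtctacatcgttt
Counted from the start site, the word began at -166 in Per1, at -60 in Cry1 and at -127 and -138 from separate starts of Tef. Per1 and Tef were lower in the Cry2 knockdown. Cry1 was higher, but the other group was its own knockdown, which sets that direction. Against the control, Cry1 in the Cry2 knockdown had a log2 fold of 0.02 ± 0.20 (SE, edgeR adjusted p = 0.988). Bhlhe41 and Ciart, other repressors with the word, did not pass the test. A match describes letters in the window only.

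Of the genes of the series title and the paralog of one of them, Tmem176b, Tmem176a and Bclaf1 were lower in the Cry2 than in the Cry1 knockdown, 3 of 4 genes (75%, against 7.93% of all genes), and Ccnd1 did not pass. Tmem176b encodes a cation channel of intracellular membranes (chr6:48833818-48841496, minus strand). Its levels were 5.63, 10.8 and 6.003 CPM in the Cry1 knockdown, 0.969, 1.91 and 0.378 CPM in the Cry2 knockdown, the control holding 2.35, 1.51 and 1.11 CPM. The knockdown groups did not overlap, and the Cry1 knockdown was also above the control on each day. The log2 fold was -2.80 ± 0.40 (SE, edgeR adjusted p = 0.00601) and held without each library.

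Tmem176a (chr6:48840919-48847071, plus strand), which overlaps the start of its paralog on the opposite strand, stood at 3.11, 5.82 and 3.71 CPM in the Cry1 knockdown. It stood at 0.969, 0.423 and 0.189 CPM in the Cry2 knockdown, the last 2 values being at or below the level of 3 counts. The log2 fold was -2.84 ± 0.49 (SE, edgeR adjusted p = 0.0122), and leaving out a knockdown library of day 3 or day 5 ended the call (adjusted p up to 0.0750). Tmem176b shares 2.13% of its exon bases. Per kilobase of exon, the control held 0.0770, 0.2205 and 0.0972 CPM of Tmem176a at days 0, 3 and 5. The Cry2 knockdown held 0.254, 0.111 and 0.0496 CPM per kilobase, and the Cry1 knockdown 0.817, 1.527 and 0.973. The Cry1 knockdown was thus above the control on each day, while the Cry2 knockdown was above it at day 0 and below it later.

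Ccnd1, which encodes cyclin D1 (chr7:144929931-144939925, minus strand), was at 237, 55.7 and 35.8 CPM in the Cry1 knockdown, 234, 24.1 and 23.1 CPM in the Cry2 knockdown, the control holding 241, 74.4 and 30.4 CPM. The knockdowns were level at day 0, and the Cry2 knockdown was lower at days 3 and 5, by log2 ratios of -1.20 and -0.63. Over the 3 days the log2 fold was -0.50 ± 0.25 (SE, edgeR adjusted p = 0.238), and the change of the difference after day 0 was -0.89 on the log2 scale (edgeR adjusted p = 0.708). Overlapping genes share 23.4% of its exon bases. Bclaf1 (chr10:20312469-20344613, plus strand) was at 239, 148.5 and 157.5 CPM in the Cry1 knockdown and 182, 123 and 137 CPM in the Cry2 knockdown, lower within each day with overlapping groups. Its log2 fold of -0.29 ± 0.07 (SE, edgeR adjusted p = 0.0412) kept its call in only 1 of the 9 fits without a library, that without the control of day 3, with an adjusted p of up to 0.157 in the others.

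**Figure D2:**
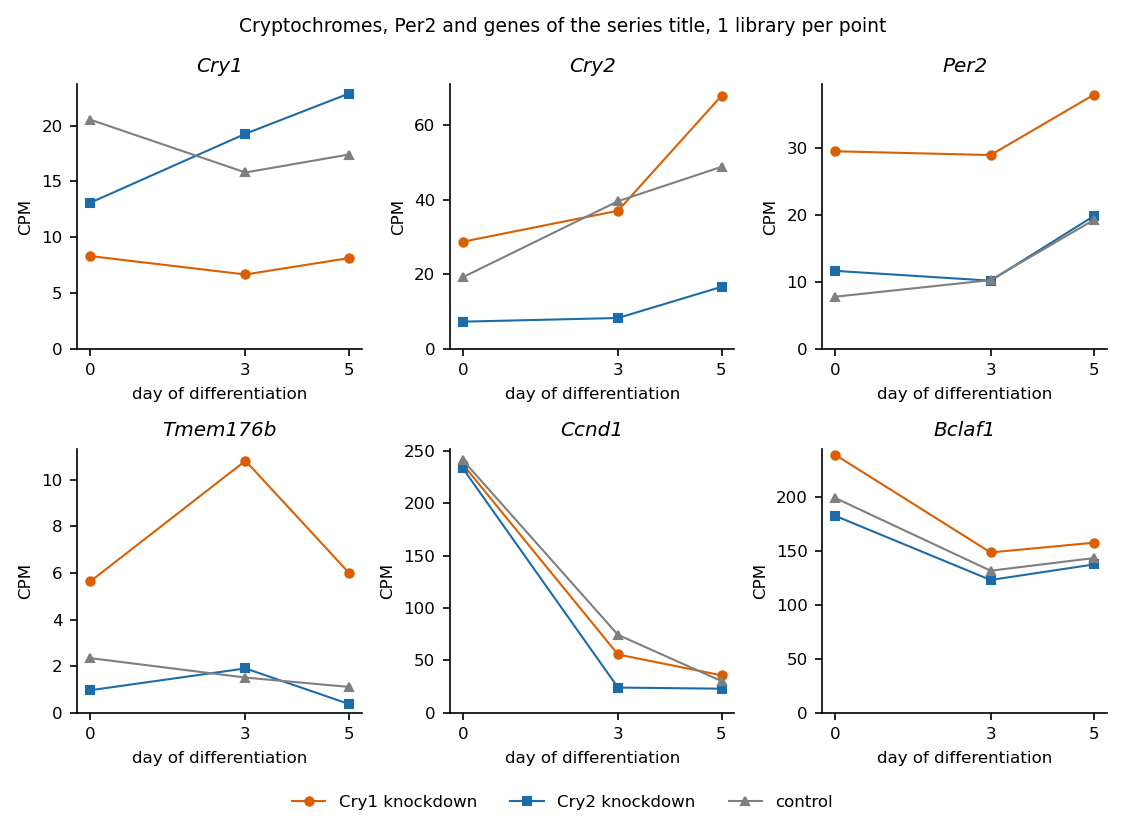
CPM on a linear axis from 0 against day of differentiation for Cry1, Cry2, Per2, Tmem176b, Ccnd1 and Bclaf1, each point being 1 library. The Cry1 knockdown (circles) lies above the Cry2 knockdown (squares) on every day for Cry2, Per2, Tmem176b and Bclaf1 and below it for Cry1, and the lines of Ccnd1 start together at day 0.

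Some contractile genes, myosin heavy chains among them, were lower in the Cry2 than in the Cry1 knockdown, and most did not pass. Of 52 sarcomere genes tested, 14 were called lower, 1 higher and 37 neither, a share of 28.8% against 7.93% of all genes, and 45 of the 52 had a fold below 0. The median log2 fold was -0.61, against -0.02 over all genes. Within days, the median log2 ratio of the list stood at -1.30, -0.51 and -0.16 on days 0, 3 and 5, and 6, 8 and 20 of the genes were higher in the Cry2 knockdown on those days. Their summed level was 6702, 51328 and 54119 CPM in the Cry1 knockdown against 4826, 41625 and 52393 CPM in the Cry2 knockdown, the control holding 5105, 35258 and 49164 CPM. The Cry1 knockdown held the most on each day, and the Cry2 knockdown held less than the control at day 0 and more at days 3 and 5.

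The largest folds in the list were in myosin heavy chains, the motor proteins of the thick filament. Myh7, the slow and cardiac isoform, was at 14.4, 161 and 319 CPM in the Cry1 knockdown and 2.75, 23.9 and 94.1 CPM in the Cry2 knockdown. Its log2 fold was -2.28 ± 0.23 (SE, edgeR adjusted p = 0.00157). Myh8, the perinatal isoform, was at 6.52, 245 and 503 CPM against 0.646, 26.0 and 197 CPM (log2 fold -2.28 ± 0.34, SE, edgeR adjusted p = 0.00671). Both were lower in the Cry2 knockdown on every day, and their ranges overlapped, both being far higher at day 5 than at day 0. Myh4 and Myh1, fast isoforms, had log2 folds of -1.54 ± 0.33 and -1.43 ± 0.34 (SE, edgeR adjusted p = 0.0261 and 0.0369). These isoforms share sequence: 28.2% of the 50-base words of Myh7, 21.4% of those of Myh8 and 18.9% of those of Myh4 occur in other genes, so reads may be split between them.

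Igfn1, a large immunoglobulin and fibronectin domain protein of the Z-disc, was at 7.86, 75.8 and 198 CPM in the Cry1 knockdown and 0.484, 15.7 and 55.0 CPM in the Cry2 knockdown. The control was lower than both at days 3 and 5, with 10.2 and 26.1 CPM. Mybpc1, a myosin-binding protein of slow fibres, was at 0.889, 130 and 355 CPM against 0.323, 24.98 and 156 CPM. Actn2, the alpha-actinin that crosslinks thin filaments at the Z-disc, was at 4.45, 455 and 437 CPM against 0.646, 96.9 and 214 CPM. The log2 folds of these 3 genes were -2.15 ± 0.20, -1.73 ± 0.24 and -1.71 ± 0.25 (SE), with edgeR adjusted p = 0.00131, 0.00547 and 0.00660.

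Further called members, named after their values were seen, were Actc1, the cardiac actin of embryonic muscle, Xirp2, Mybpc2, Smyd1, a methyltransferase needed for thick filament assembly, Nrap, Pdlim3 and Actn3, with log2 folds from -1.44 in Xirp2 to -0.34 in Actn3. Cryab, a small heat shock protein that protects filaments, was the gene called higher, at 113, 341 and 327 CPM in the Cry1 knockdown and 140, 588 and 530 CPM in the Cry2 knockdown (log2 fold 0.61 ± 0.11, SE, edgeR adjusted p = 0.0152). The genes Myh7, Myh8, Igfn1 and Mybpc1 held without each library. Of the 15 calls, 4 remained without the Cry2 knockdown of day 3, 5 without the Cry1 knockdown of day 3, 7 without the Cry2 knockdown of day 0, and 9 to 12 without any other library except the control of day 3, where all 15 remained. The highest adjusted p in these fits was 0.180.

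**Figure D3:**
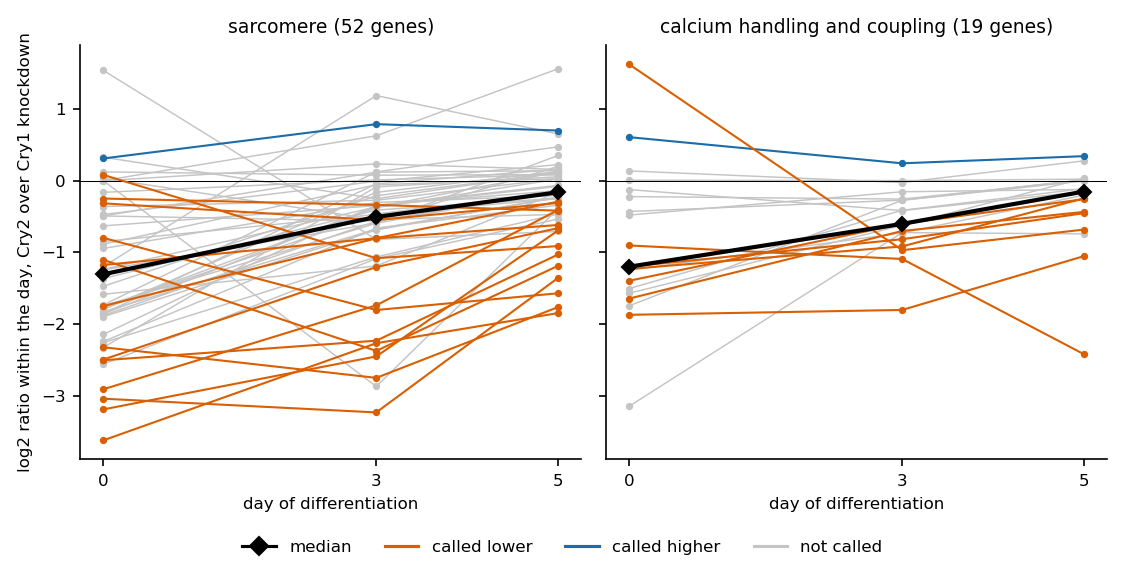
Each thin line is 1 gene of the sarcomere list (52 genes, left) or the list of calcium handling and excitation-contraction coupling (19 genes, right), and shows its log2 ratio of the Cry2 over the Cry1 knockdown library within days 0, 3 and 5. Orange lines are genes called lower, blue lines genes called higher, grey lines genes not called and the black line the median, which goes from -1.30 to -0.16 on the left and from -1.20 to -0.15 on the right.

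Among genes that couple the membrane to calcium release, the median ratio was also lowest at day 0. Of 19 tested, 7 were called lower and 1 higher (42.1%), with a median of -0.55 and within-day medians of -1.20, -0.60 and -0.15. Trdn, which encodes triadin of the calcium release complex, was at 1.63, 28.4 and 61.6 CPM in the Cry1 knockdown and 0.323, 8.04 and 29.7 CPM in the Cry2 knockdown (log2 fold -1.40 ± 0.19, SE, edgeR adjusted p = 0.00431). Stac3, a component of the voltage sensor complex, was at 21.3, 91.8 and 69.9 CPM against 9.21, 52.1 and 51.0 CPM (log2 fold -0.78 ± 0.14, SE, edgeR adjusted p = 0.0139). Both were lower in the Cry2 knockdown within each day. Atp2a1, the fast-fibre calcium pump SERCA1, was at 37.4, 668 and 1349 CPM against 15.8, 354 and 1138 CPM, and 21.9% of its exon bases overlap another gene.

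Pvalb, the calcium buffer parvalbumin, was at 0.148, 5.15 and 15.9 CPM in the Cry1 knockdown and 0, 2.33 and 2.83 CPM in the Cry2 knockdown, with both day 0 libraries under 3 counts. Casq1, the calcium store protein calsequestrin, Srl and Jph1 were also called lower, with log2 folds of -0.74, -0.89 and -0.65, and Asph was called higher with 0.40. Casq1 was lower at days 3 and 5, and its day 0 values of 0.148 and 0.807 CPM rest on a few counts. Trdn held its call without each library. Of the 8 calls, 2 remained without the Cry1 knockdown of day 3, 3 without the Cry2 knockdown of day 3 or day 5, 4 without the Cry2 knockdown of day 0 or the control of day 5, 5 without the Cry1 knockdown of day 0 or day 5 or the control of day 0, and 7 without the control of day 3. Adjusted p reached 0.194.

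Upstream of these genes, 2 of 14 myogenic transcription factors were called, both lower in the Cry2 knockdown (14.3%, list median -0.19). Mef2c, which activates sarcomere genes, was at 28.5, 343 and 631 CPM in the Cry1 knockdown and 13.6, 102 and 335 CPM in the Cry2 knockdown, lower on each day (log2 fold -1.28 ± 0.20, SE, edgeR adjusted p = 0.00759). Tead4, a DNA-binding partner of YAP active in myoblasts, was at 24.5, 106 and 133 CPM against 13.1, 69.9 and 104 CPM (log2 fold -0.59 ± 0.13, SE, edgeR adjusted p = 0.0308). The control held 8.80, 119 and 390 CPM of Mef2c. Against it the log2 fold of Mef2c was 1.23 ± 0.19 in the Cry1 knockdown and -0.06 ± 0.20 in the Cry2 knockdown (SE, edgeR adjusted p = 0.0185 and 0.944). Mef2c lost its call without the Cry2 knockdown of day 3 (edgeR adjusted p = 0.0511). Tead4 lost it without the day 0 or day 3 library of either knockdown or the Cry2 knockdown of day 5, with an adjusted p of up to 0.121.

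Myod1 and Myog, the factors that commit cells and start terminal differentiation, did not pass the comparison over 3 days. Myod1 was at 158, 114 and 137 CPM in the Cry1 knockdown and 82.5, 96.3 and 129.5 CPM in the Cry2 knockdown (log2 fold -0.43 ± 0.17, SE, edgeR adjusted p = 0.150). Myog was at 180, 800 and 998 CPM against 35.4, 557 and 716 CPM, and 58.7, 682 and 958 CPM in the control. Its log2 ratio was -2.34 at day 0 and -0.52 and -0.48 at days 3 and 5. The fold over the days was -1.10 ± 0.32 (SE, edgeR adjusted p = 0.0719), while the change of that difference after day 0 passed its own test.

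That change, tested as an interaction of genotype with day 0 against days 3 and 5, passed in 15 of 13608 genes (0.11%), 6 with a positive and 9 with a negative change, and 962 genes had an unadjusted p under 0.05. Of the named muscle genes, Rbm24, an RNA-binding protein of muscle splicing, went from 38.1 and 3.39 CPM at day 0 (Cry1 and Cry2 knockdown) to 180 and 128 at day 3 and 237 and 211 at day 5. The Cry2 knockdown thus stood far below at day 0 and near the Cry1 knockdown later, a change of 3.15 ± 0.27 on the log2 scale (SE, edgeR adjusted p = 0.0146). For Myog the change was 1.84 ± 0.18 (SE, edgeR adjusted p = 0.0273). Mymk, the fusion protein myomaker, was at 72.8 and 25.7 CPM at day 0, 887 and 943 at day 3 and 920 and 1026 at day 5, a change of 1.62 ± 0.18 (SE, edgeR adjusted p = 0.0436). Rbm24 lost the call without the day 5 library of either knockdown, and Myog and Mymk without the day 3 or day 5 library of either, with an adjusted p of up to 0.223. With mitochondrially encoded genes and pseudogenes left out before fitting, edgeR called 0 genes, 909 having an unadjusted p under 0.05, and DESeq2 on all genes called 46. The control libraries of day 0 stood near the Cry2 knockdown for Rbm24 (5.87 CPM), Myog and Mymk (33.6 CPM).

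Of 19 fusion and adhesion genes, 2 were called lower and 1 higher (15.8%). Cav3, the caveolin of the muscle membrane, was at 2.08, 105 and 140 CPM in the Cry1 knockdown and 0.646, 44.0 and 92.6 CPM in the Cry2 knockdown (log2 fold -0.96 ± 0.18, SE, edgeR adjusted p = 0.0164). Neo1, the netrin receptor neogenin, had a log2 fold of -0.43 ± 0.10, and Jam2, a junction adhesion molecule, one of 0.48 ± 0.10 (SE, edgeR adjusted p = 0.0286 and 0.0265). None of these calls survived leaving out either knockdown of day 3 or the Cry2 knockdown of day 5, Neo1 and Jam2 lost theirs without the Cry1 knockdown of day 5, Neo1 without the Cry1 knockdown of day 0 and Jam2 without the Cry2 knockdown of day 0. Adjusted p reached 0.128.

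In the list of the acetylcholine receptor and neuromuscular synapse, 1 of 16 was called lower (6.25%), which is near the background. It was Dmd, the membrane linker dystrophin, at 0.148, 4.49 and 33.9 CPM in the Cry1 knockdown and 0.161, 0 and 5.10 CPM in the Cry2 knockdown (log2 fold -2.94 ± 0.47, SE, edgeR adjusted p = 0.00910). The control was near the Cry2 knockdown, with 0, 0.504 and 5.00 CPM of Dmd. The call of Dmd was lost without the day 5 library of either knockdown (adjusted p up to 0.0790). Of 19 genes of muscle energy metabolism, Ampd1, Ckm and Pgam2 were called lower and none higher (15.8%, median -0.04). Ckm, the muscle creatine kinase, was at 13.3, 410 and 351 CPM against 4.04, 220 and 260 CPM, and the control was near the Cry2 knockdown with 4.55, 217 and 255 CPM. None of the 3 calls remained without the Cry1 knockdown of day 3 or without any library of the Cry2 knockdown (adjusted p up to 0.251).

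Some cell cycle genes were lower in the Cry2 knockdown. Of 14 G1 cyclins, kinases and E2Fs, 4 were called lower and 1 higher (35.7%, median -0.35). Ccne2, the cyclin E2 that drives S phase entry, was at 40.8, 12.5 and 4.94 CPM in the Cry1 knockdown and 20.8, 9.95 and 3.59 CPM in the Cry2 knockdown, lower within each day (log2 fold -0.67 ± 0.17, SE, edgeR adjusted p = 0.0416). E2f7, a repressor of E2F targets, Cdk2 and Cdk6 had log2 folds of -0.74, -0.48 and -0.43. Cdk4, the partner of cyclin D1, was the gene called higher with 0.30 ± 0.07 (SE, edgeR adjusted p = 0.0432), at 306, 216 and 129 CPM against 346, 285 and 162 CPM, and Tspan31 shares 19.7% of its exon bases. No member kept its call in each fit. Of the 5, 4 remained without the control of day 3, 2 without the control of day 5, 1 without the Cry1 knockdown of day 3 and 0 without any other library, with an adjusted p of up to 0.244. DESeq2 called 0 of the 14, with 8 at an unadjusted p under 0.05.

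Of 34 DNA replication genes, Mcm10, Cdt1, Mcm7 and Mcm4 were called lower and none higher (11.8%, against 7.93% of all genes, median -0.23). All of these belong to the licensing and helicase machinery. Mcm7 was at 194, 46.6 and 36.7 CPM in the Cry1 knockdown and 124, 34.7 and 25.9 CPM in the Cry2 knockdown (log2 fold -0.54 ± 0.09, SE, edgeR adjusted p = 0.0110), and 34.2% of its 50-base words occur in other genes. The within-day medians of the list were -0.40, -0.16 and -0.01, with 1, 11 and 17 of the 34 genes higher in the Cry2 knockdown on those days. Of 31 mitosis genes, 30 had a fold below 0 (median -0.28). Only Cenpe and Kif11, both mitotic motors, were called, 6.45% against 7.93% of all genes. None of these 6 calls remained without the day 0 library of either knockdown or the Cry1 knockdown of day 5, 1 remained without either day 3 library of a knockdown, and 4 without the Cry2 knockdown of day 5, with an adjusted p of up to 0.224. DESeq2 called 2 of the replication and 0 of the mitosis genes, with 6 of the latter at an unadjusted p under 0.05. Of 8 CDK inhibitors and pocket proteins, 1 was called lower, Cdkn1c, which encodes the imprinted inhibitor p57, at 1.33, 22.1 and 1.77 CPM against 0.807, 5.93 and 0.378 CPM (log2 fold -1.70 ± 0.33, SE, edgeR adjusted p = 0.0179). It was lost without the day 3 library of either knockdown or the Cry2 knockdown of day 5, with an adjusted p of up to 0.211. Cdkn1a, the p21 inhibitor induced on cell cycle exit, had a log2 fold of -0.28 ± 0.10 (SE, edgeR adjusted p = 0.121).

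Col1a1, Col1a2, Col4a1, Col4a2 and Col11a1 were lower, and decorin and thrombospondin 2 higher, in the Cry2 than in the Cry1 knockdown, while other collagens did not pass or were higher. Of 34 extracellular matrix and fibroblast genes, 11 were called lower in the Cry2 knockdown and 4 higher (44.1%, median -0.16), and 6 had no overlap between groups, as did 8.23% of all genes. Col1a1, the main chain of fibrillar collagen I, was at 1634, 3451 and 5398 CPM in the Cry1 knockdown, 486, 1366 and 2573 CPM in the Cry2 knockdown, the control holding 947, 2171 and 3099 CPM. The control lay between the knockdowns on each day, and the log2 fold was -1.38 ± 0.14 (SE, edgeR adjusted p = 0.00165). Its partner chain Col1a2 had a log2 fold of -0.77 ± 0.09 (SE, edgeR adjusted p = 0.00278), with 2496, 3415 and 4541 CPM against 1472, 1922 and 2769 CPM. Col4a1 and Col4a2, the basement membrane chains that lie head to head, were at 353 to 389 and 299 to 383 CPM in the Cry1 knockdown and at 211 to 262 and 155 to 262 CPM in the Cry2 knockdown. Neither overlapped, with log2 folds of -0.69 ± 0.09 and -0.76 ± 0.10 (SE, edgeR adjusted p = 0.00378 and 0.00436).

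Col11a1, a minor fibrillar collagen, was at 5.48, 8.65 and 27.2 CPM in the Cry1 knockdown and 0.646, 0.635 and 1.13 CPM in the Cry2 knockdown, a log2 fold of -4.04 ± 0.46 (SE, edgeR adjusted p = 0.00249). The control was near the Cry2 knockdown at days 0 and 3 (0.880 and 1.01 CPM) and lay between the knockdowns at day 5 (9.81 CPM). Going the other way, Dcn, the collagen-binding proteoglycan decorin, was at 9.34, 164 and 320 CPM in the Cry1 knockdown, 28.3, 495 and 704 CPM in the Cry2 knockdown, the control holding 20.1, 434 and 814 CPM. Its log2 fold was 1.43 ± 0.13 (SE, edgeR adjusted p = 0.00131). Thbs2, a matricellular thrombospondin, was at 278, 411 and 698 CPM against 612, 703 and 1293 CPM (log2 fold 0.94 ± 0.14, SE, edgeR adjusted p = 0.00583). Timp2 and Col6a3 were also higher, and Fmod, Col12a1, Pdgfrb, Col5a1, Bgn and Col5a2 lower, with log2 folds from -1.39 in Fmod to -0.41 in Col5a2. In all, 7 of the 15 calls held in every fit, those of Col11a1, Col1a1, Dcn, Thbs2, Col1a2, Col4a2 and Col4a1. Of the 15, 7 remained without the Cry1 knockdown of day 3, 8 without that of day 5, 9 without any library of the Cry2 knockdown, 11 without the Cry1 knockdown of day 0, 12 without the control of day 0 and 15 without either other control, with an adjusted p of up to 0.171.

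Collagens were also counted as a family, which was not among the 34 lists and takes in the collagens of the matrix list. These counts are therefore not separate from those above. Across all 29 collagen genes tested, 13 were called lower and 3 higher (55.2%, against 7.93% of all genes), and 10 had a fold above 0. Those called higher were Col23a1, Col6a3 and Col4a5, a basement membrane chain named after its values were seen, whose log2 fold was 0.41 ± 0.08 (SE, edgeR adjusted p = 0.0225). Col4a5 lost its call without any library of the Cry1 knockdown or the Cry2 knockdown of day 0 or day 5 (adjusted p up to 0.106). Between 8 and 16 of these 16 calls remained in the fits without 1 library, 8 without the Cry1 knockdown of day 3 and 10 without that of day 5 or the Cry2 knockdown of day 0 or day 5. Col23a1, a transmembrane collagen, was at 0.148, 4.82 and 10.1 CPM in the Cry1 knockdown, 0.646, 45.3 and 109 CPM in the Cry2 knockdown, the control holding 0.587, 5.71 and 8.15 CPM. At days 3 and 5 the Cry2 knockdown stood apart and the other 2 groups lay together, and at day 0 the control was near the Cry2 knockdown, with a log2 fold between knockdowns of 3.29 ± 0.28 (SE, edgeR adjusted p = 0.00126). The call of Col23a1 held without each library.

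**Figure D4:**
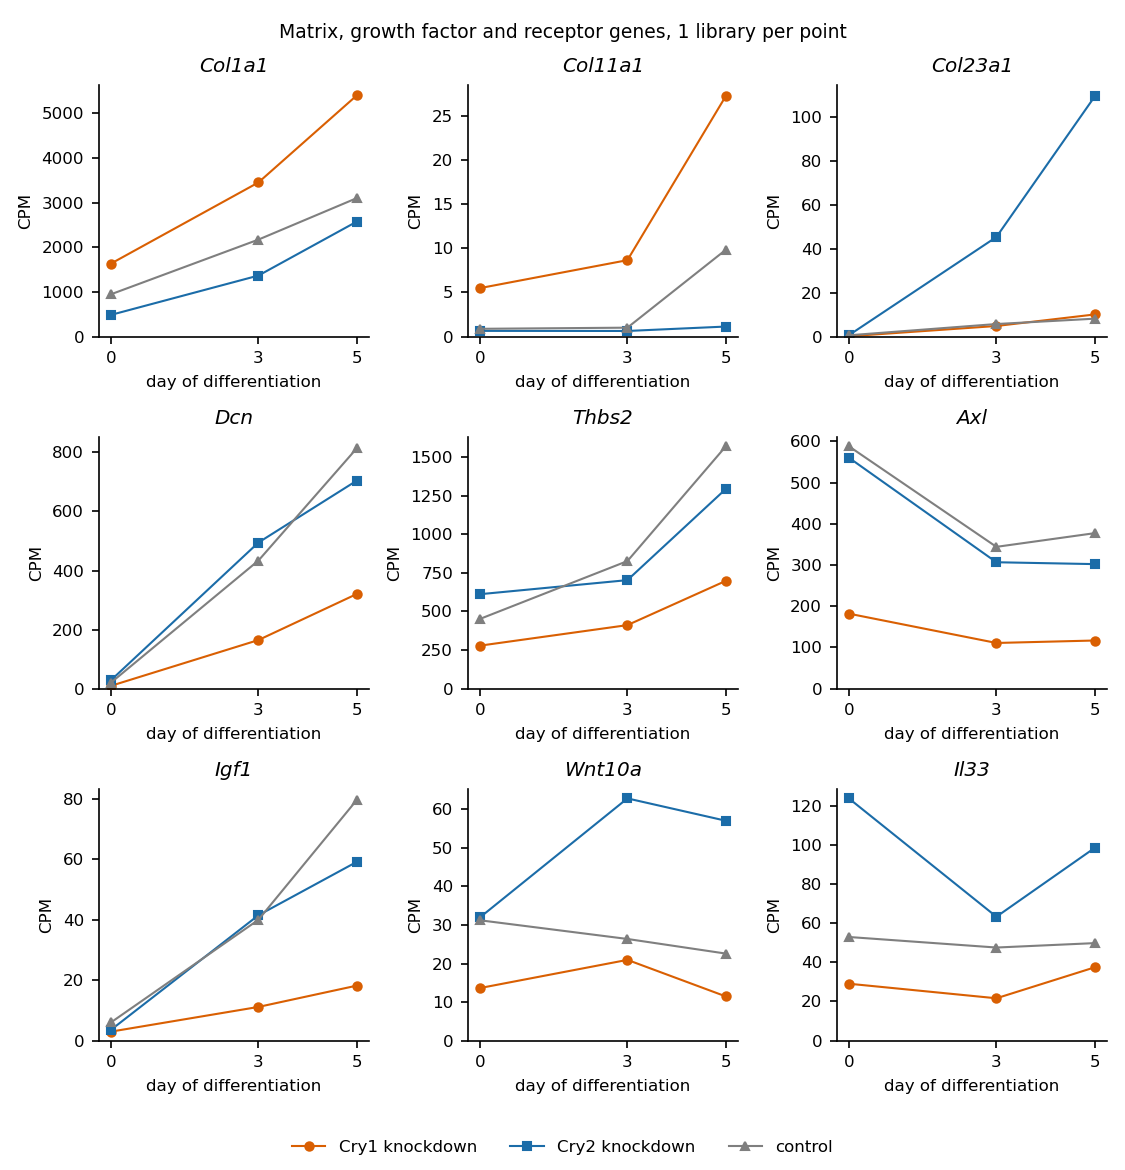
CPM on a linear axis from 0 against day for 9 genes of the matrix, growth factors and receptors, each point being 1 library. The Cry1 knockdown (circles) is highest for Col1a1 and Col11a1 and lowest for Dcn, Thbs2, Axl, Igf1, Wnt10a and Il33, while Col23a1 separates the Cry2 knockdown (squares) from the other 2 groups at days 3 and 5.

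In the insulin-like growth factor axis, which promotes muscle growth, 3 of 17 genes were called higher in the Cry2 knockdown and 1 lower (23.5%, median 0.02). Igf1, the ligand, was at 2.96, 11.1 and 18.2 CPM in the Cry1 knockdown, 3.55, 41.5 and 59.2 CPM in the Cry2 knockdown, the control holding 6.01, 40.0 and 79.6 CPM. The knockdowns were close at day 0 and apart later, with a log2 fold over the days of 1.57 ± 0.23 (SE, edgeR adjusted p = 0.00583). The binding proteins Igfbp2 and Igfbp6 were higher too. Igfbp2 was at 939, 168 and 80.7 CPM against 1430, 701 and 310 CPM, and Igfbp6 at 88.8, 105 and 94.3 CPM against 140, 160.5 and 156 CPM, with no overlap in the latter. Their log2 folds were 1.46 ± 0.29 and 0.67 ± 0.11 (SE, edgeR adjusted p = 0.0199 and 0.00841). Grb10, an adaptor that restrains the receptor, was lower, at 0.445, 7.48 and 12.2 CPM in the Cry1 knockdown and 0, 1.06 and 3.21 CPM in the Cry2 knockdown (log2 fold -2.27 ± 0.43, SE, edgeR adjusted p = 0.0167). Igfbp6 held without each library, Igf1 was lost without the Cry1 knockdown of day 3 (edgeR adjusted p = 0.0533), Igfbp2 without the day 3 or day 5 library of either knockdown and Grb10 without these libraries other than the Cry2 knockdown of day 5 (adjusted p up to 0.0983).

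In Wnt signalling, which regulates myoblast commitment, 4 of 26 genes were called higher and 3 lower (26.9%, median 0.24). The ligand Wnt10a was at 13.6, 20.9 and 11.5 CPM in the Cry1 knockdown and 32.0, 62.9 and 57.1 CPM in the Cry2 knockdown, without overlap (log2 fold 1.71 ± 0.25, SE, edgeR adjusted p = 0.00624). The ligand Wnt4 was at 1.33, 4.99 and 9.36 CPM against 2.10, 12.3 and 21.4 CPM. Axin2, a feedback inhibitor widely read as a target of beta-catenin, was at 1.63, 2.16 and 3.35 CPM against 3.23, 7.62 and 11.5 CPM (log2 fold 1.57 ± 0.26, SE, edgeR adjusted p = 0.00989), and Ccn4 was higher by 0.39. The secreted inhibitor Wif1 was at 0.148, 12.0 and 8.30 CPM against 0, 2.12 and 1.32 CPM, with a log2 fold of -2.56 ± 0.45 (SE, edgeR adjusted p = 0.0132). The nuclear factors Tcf7l1 and Lef1 were lower by -0.74 and -0.61. Both ligands and Axin2 were higher and the inhibitor Wif1 lower, and Lef1 stood on the other side from Axin2. Wnt10a held without each library. Of the 7 calls, 1 remained without the Cry1 knockdown of day 3 or the Cry2 knockdown of day 5, 2 without the Cry1 knockdown of day 5 or the Cry2 knockdown of day 3, 4 and 5 without the day 0 libraries of the Cry1 and the Cry2 knockdown, 5 without the control of day 0 and 7 without the other controls (adjusted p up to 0.148).

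Id proteins and Notch signalling hold myoblasts undifferentiated, although Hes6, a member of the list, opposes Hes1 and promotes differentiation. Of the 17 genes tested, 4 were called lower and none higher (23.5%), with a median of -0.50. Jag1, a Notch ligand, was at 15.3, 32.8 and 58.4 CPM in the Cry1 knockdown and 7.75, 14.6 and 34.2 CPM in the Cry2 knockdown (log2 fold -0.93 ± 0.19, SE, edgeR adjusted p = 0.0226). Id3, an inhibitor of E-protein dimers, was at 87.2, 9.14 and 6.71 CPM against 43.4, 8.47 and 3.59 CPM. Hey1 and Hes6 had log2 folds of -0.57 and -0.50. Of the 4 calls, 0 remained without the Cry1 knockdown of day 3 or day 5 or the Cry2 knockdown of day 0, 1 without the Cry2 knockdown of day 3 or day 5, 2 without the Cry1 knockdown or the control of day 0 and 3 or 4 without the other controls, with an adjusted p of up to 0.274.

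In TGF-beta, BMP and myostatin signalling, 2 of 30 genes were called higher and 3 lower (16.7%, median -0.02). Smad3, the TGF-beta effector, was at 98.1, 68.3 and 102 CPM in the Cry1 knockdown and 143, 103 and 143 CPM in the Cry2 knockdown, without overlap (log2 fold 0.54 ± 0.09, SE, edgeR adjusted p = 0.00877). Smad1, the BMP effector, was at 37.5, 42.7 and 46.1 CPM against 26.3, 30.7 and 31.6 CPM, also without overlap (log2 fold -0.51 ± 0.11, SE, edgeR adjusted p = 0.0249). Smad3 and Smad1 thus stood on opposite sides. Mstn, the muscle growth inhibitor myostatin, had 33 counts in the Cry1 knockdown and 1 in the Cry2 knockdown, a ratio of 29.0 with an exact 95% interval of 4.86 to 1181 for counting error. Bmp1 was higher by 0.30 and Ltbp2 lower by -0.71. No call remained without the Cry1 knockdown of day 3, which ended that of Smad3 (edgeR adjusted p = 0.0575). Of the 5 calls, 1 remained without the Cry1 knockdown of day 5 or the Cry2 knockdown of day 3 or day 5, and 3 without any library of day 0, with an adjusted p of up to 0.190.

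Among smooth muscle and YAP target genes, 2 of 15 were called higher (13.3%, median 0.12). Axl, a receptor tyrosine kinase, was at 182, 111 and 117 CPM in the Cry1 knockdown, 560, 307 and 302 CPM in the Cry2 knockdown, the control holding 588, 344 and 377 CPM. The 3 days gave nearly the same log2 ratio, 1.62, 1.47 and 1.37, and the fold of 1.49 ± 0.08 (SE, edgeR adjusted p = 8.89e-05) held without each library. Against the control the log2 fold of Axl was -1.68 ± 0.08 in the Cry1 knockdown and -0.18 ± 0.08 in the Cry2 knockdown (SE, edgeR adjusted p = 6.16e-05 and 0.394), and these comparisons share the control libraries. Nras, a small GTPase chosen after its values were seen, was likewise low in the Cry1 knockdown alone, at 48.0 to 62.4 CPM in the Cry1 knockdown, 124 to 160 CPM in the Cry2 knockdown and 128 to 174 CPM in the control, without overlap of the Cry1 knockdown with either. Its log2 fold between the knockdowns was 1.35 ± 0.07 (SE, edgeR adjusted p = 8.89e-05). Myl9, a smooth muscle myosin light chain, was at 127, 62.0 and 26.3 CPM against 145, 141 and 100 CPM, but its call (log2 fold 1.07 ± 0.27, SE, edgeR adjusted p = 0.0436) was kept in only 2 of the 9 fits, those without the day 0 library of either knockdown, with an adjusted p of up to 0.166 in the others.

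Of 28 genes of cholesterol and fatty acid synthesis, 27 had a fold below 0 (median -0.36), with 2 called lower and 1 higher (10.7%). The within-day medians were 0.06 at day 0, -0.49 at day 3 and -0.43 at day 5. Pmvk, phosphomevalonate kinase of cholesterol synthesis, was at 31.4, 70.5 and 32.5 CPM in the Cry1 knockdown and 27.6, 33.4 and 19.3 CPM in the Cry2 knockdown, lower within each day with overlapping groups (log2 fold -0.68 ± 0.16, SE, edgeR adjusted p = 0.0324). Scd1, which desaturates fatty acids, was called higher, at 427, 1252 and 1096 CPM against 961, 2024 and 2033 CPM (log2 fold 0.92 ± 0.13, SE, edgeR adjusted p = 0.00583), and held without each library. Pmvk lost its call when a knockdown library of day 3 or day 5 or the control of day 0 was left out, with an adjusted p of up to 0.159.

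Foxo1, the factor that drives atrophy genes, was at 26.7, 39.2 and 49.8 CPM in the Cry1 knockdown and 12.6, 18.0 and 24.2 CPM in the Cry2 knockdown, without overlap. The log2 ratio was -1.07, -1.12 and -1.04 on the 3 days, and the fold of -1.08 ± 0.11 (SE, edgeR adjusted p = 0.00157) held without each library. Trim63, the ubiquitin ligase MuRF1 and a target of FoxO factors, was at 0.593, 43.4 and 59.9 CPM against 0.484, 25.6 and 37.0 CPM (log2 fold -0.71 ± 0.16, SE, edgeR adjusted p = 0.0330). These were the called members among 14 atrophy and FoxO genes (14.3%), and Trim63 was lost without a knockdown library of day 3 or day 5 or the Cry2 knockdown of day 0 (adjusted p up to 0.209). Il33, an alarmin cytokine of the nucleus, was the 1 called of 18 chemokines and cytokines (5.56%). It was at 29.1, 21.6 and 37.4 CPM in the Cry1 knockdown, 124, 63.3 and 98.5 CPM in the Cry2 knockdown, the control holding 52.9, 47.5 and 49.8 CPM, so the control lay between and no groups overlapped. Its log2 fold was 1.69 ± 0.17 (SE, edgeR adjusted p = 0.00157) and held without each library.

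**Figure D5:**
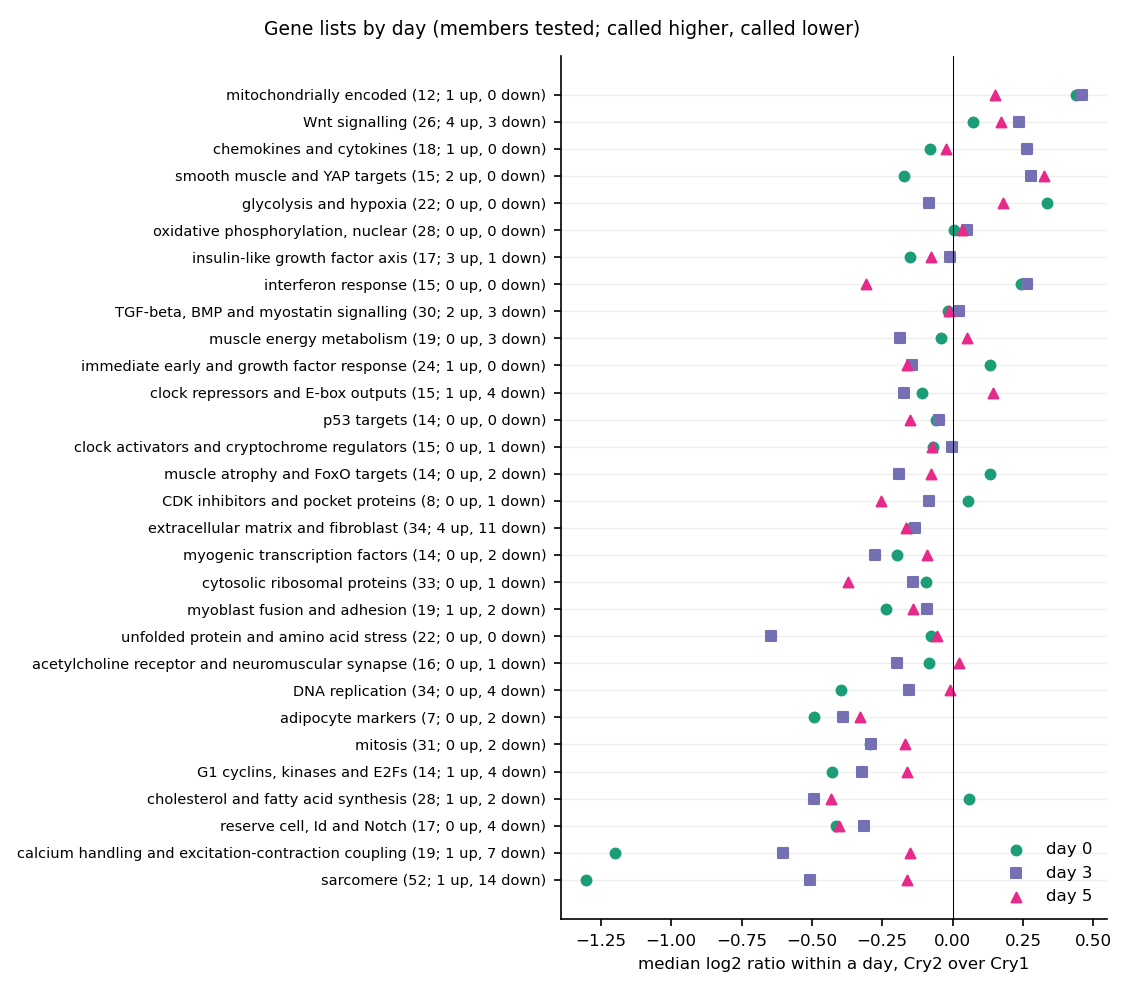
For each gene list with at least 7 members tested, the median log2 ratio of the Cry2 over the Cry1 knockdown library is shown within day 0 (circle), day 3 (square) and day 5 (triangle), with the number of members tested and called beside its name. Sarcomere and calcium handling lists lie lowest at day 0, at -1.30 and -1.20, and cholesterol synthesis lies at 0.06 at day 0 and below 0 afterwards.

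The 14 named genes with the largest rises included low transcripts whose folds rest on few counts. Vtn, the plasma adhesion protein vitronectin, had 1 count over the Cry1 knockdown and 31 over the Cry2 knockdown, a ratio of 35.2 with an exact 95% interval of 5.87 to 1436 for counting error. Cacng7, a calcium channel subunit, had 3 and 39 counts, a ratio of 14.8 with an interval of 4.698 to 74.8. Better measured was Hdc, the histamine-forming decarboxylase, at 1.19, 2.49 and 3.35 CPM in the Cry1 knockdown, 5.65, 23.5 and 20.8 CPM in the Cry2 knockdown, the control holding 3.52, 13.4 and 10.2 CPM. It did not overlap between groups (log2 fold 2.76 ± 0.23, SE, edgeR adjusted p = 0.00126). Add2, the membrane skeleton protein beta adducin, was at 22.4, 1.496 and 1.59 CPM against 107, 18.0 and 8.32 CPM, higher within each day (log2 fold 2.45 ± 0.29, SE, edgeR adjusted p = 0.00278).

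Cpa4, Btc, an epidermal growth factor receptor ligand, Tmprss11b, Sbsn, Dnaic1 and Trdc were also among them, with log2 folds from 2.34 in Trdc to 3.02 in Dnaic1 and no value above 14.4 CPM. Bglap2, an osteocalcin gene, shares 88.2% of its 50-base words with Bglap and Bglap3 and is therefore uncertain. For mt-Atp8 the fold of 4.54 ± 1.16 (SE, edgeR adjusted p = 0.0462) came from the Cry2 knockdown at day 0, at 109.5 CPM against 0.665 to 2.54 CPM in the other 5 libraries, and it was lost without that library, without the Cry2 knockdown of day 3 and without any library of the Cry1 knockdown. Of the 14, 4 held in each fit, Hdc, Add2 and Col23a1 among them, and Cacng7 in all 7 fits that included it. The number kept was 5 without the Cry1 knockdown of day 5 or the Cry2 knockdown of day 3, 6 without the Cry2 knockdown of day 5, 7 without the Cry1 knockdown of day 3, and 9 to 13 without any other library, with adjusted p up to 0.419. A gene that a fit left out for low counts is counted as not kept, which was so for 5 of the 14.

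The 14 largest falls were led by AW551984, with 38 counts in the Cry1 knockdown and 0 in the Cry2 knockdown, which makes it at least 11.1-fold lower there, with 3 counts over the 3 libraries as the limit. Frem2, a basement membrane protein, was at 1.19, 10.8 and 16.8 CPM in the Cry1 knockdown and 0, 0 and 0.945 CPM in the Cry2 knockdown (log2 fold -4.92 ± 0.57, SE, edgeR adjusted p = 0.00277). Abcc9, the regulatory subunit of muscle ATP-sensitive potassium channels, was at 0.296, 12.6 and 26.7 CPM against 0, 0.847 and 3.40 CPM (log2 fold -3.23 ± 0.36, SE, edgeR adjusted p = 0.00229). Fgf13, an intracellular FGF homolog that binds sodium channels, was at 0.148, 5.49 and 12.4 CPM against 0, 0.212 and 2.08 CPM. In Frem2, Abcc9 and Fgf13 the Cry1 knockdown at days 3 and 5 stood above every other library of the series.

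Parm1, Ppp1r9a and Rai2 had 41, 34 and 35 counts in the Cry1 knockdown against 1, 2 and 3, ratios of 36.1 (6.12 to 1459), 15.0 (3.83 to 128.5) and 10.3 (3.24 to 52.2) with exact 95% intervals for counting error. Iqsec3, Grip1, a synaptic scaffold, Gzme, Nrk and Prr32 were also in the set, with log2 folds from -4.13 in Prr32 to -2.97 in Gzme. Gzme, a granzyme, was highest in growing cells, at 24.8, 3.66 and 0.883 CPM against 2.75, 0.847 and 0 CPM, and 20.6% of its 50-base words occur in other genes. Of the 14, 6 held in every fit, among them Frem2, Parm1, Col11a1, Abcc9 and Fgf13. The number kept was 8 without the Cry1 knockdown of day 3 or day 5, 9 and 10 without the Cry2 knockdown of day 3 and day 5, and 11 to 14 without any other library, with adjusted p up to 0.156, and 4 of the 14 were left out of some fits for low counts.

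Some further genes of lowest p were chosen after their values were seen. In Stmn4 and Adgrg1 among them the Cry2 knockdown stood above the control on each day. Stmn4, a neuronal stathmin, was at 13.3, 9.81 and 3.00 CPM in the Cry1 knockdown, 41.7, 33.4 and 15.9 CPM in the Cry2 knockdown, the control holding 19.9, 14.3 and 7.04 CPM. Its log2 fold between knockdowns was 1.84 ± 0.15 (SE, edgeR adjusted p = 0.00126), and the control lay between the knockdowns on every day. Adgrg1, an adhesion G protein-coupled receptor, was at 18.8, 50.4 and 19.6 CPM against 58.0, 114 and 49.0 CPM, with the control at 21.3, 60.3 and 25.6 CPM (log2 fold 1.37 ± 0.12, SE, edgeR adjusted p = 0.00126). Both calls held without each library, and against the control the log2 folds in the Cry2 knockdown were 1.15 in Stmn4 and 1.09 in Adgrg1 (edgeR adjusted p = 0.0448 and 0.0217). Gm10123, an unnamed gene model, was at 213, 0 and 10.6 CPM in the Cry2 knockdown and at most 0.148 CPM in the other knockdown, so its difference was absent at day 3.

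In several lists no gene was called. These were 22 stress genes of unfolded proteins and amino acid shortage, 15 of the interferon response, 14 p53 targets, 22 of glycolysis and hypoxia and 28 nuclear genes of oxidative phosphorylation. By edgeR, 1, 3, 3, 5 and 1 of their members had an unadjusted p under 0.05. DESeq2 also called 0 in each, with 0, 2, 1, 4 and 0 at an unadjusted p under 0.05. Asns, which makes asparagine, was at 123, 166 and 411 CPM in the Cry1 knockdown and 113, 46.6 and 361 CPM in the Cry2 knockdown, and the day 3 median of the stress list was -0.64 against -0.08 and -0.06 on the other days. Of 33 ribosomal protein genes, 30 had a fold below 0 (median -0.19) and 10 an unadjusted p under 0.05, and the within-day medians were -0.09, -0.14 and -0.37. In this list 1 was called lower (3.03%), Rpl13a, of whose 50-base words 57.4% occur elsewhere. Of 24 immediate early genes, Jund was called higher (4.17%), and 30.5% of its words occur elsewhere. Rpl13a kept its call in 4 of the 9 fits without a library and Jund in 4, with adjusted p up to 0.114 in each.

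Some defining markers of other cell types were at or near 0 and others were not. Adipoq, Plin1 and Cidec of adipocytes, Rbfox3 and Sox10 of neurons and glia were at 0 in all 6 knockdown libraries, Sp7, Bglap, Ibsp and Acan of bone and cartilage were at most 0.831 CPM, and Pecam1, Cdh5 and Ptprc of endothelium and blood at most 0.212 CPM. In these libraries the cartilage and bone factors Sox9 and Runx2 were at 70.7 to 131.9 CPM and 26.4 to 61.4 CPM, the adipocyte factors Cebpa and Pparg at 1.89 to 13.2 CPM and 5.715 to 11.1 CPM, and the neuronal Map2 at 45.2 to 97.8 CPM, none of them called. Col2a1 of cartilage and Vwf of endothelium reached 1.16 CPM and 1.13 CPM. Of 7 adipocyte-list genes tested, Cd36, a fatty acid transporter that muscle also expresses, and Lpl were called lower and none higher (28.6%, against 7.93% of all genes). Cd36 was at 1.48, 56.9 and 97.5 CPM in the Cry1 knockdown and 0.161, 8.68 and 28.9 CPM in the Cry2 knockdown (log2 fold -2.22 ± 0.29, SE, edgeR adjusted p = 0.00421), and held without each library. The summed level of the adipocyte list was 122 to 338 CPM in the Cry1 knockdown and 75.1 to 236 CPM in the Cry2 knockdown. That of the bone and cartilage list, mostly Spp1, was 676 to 4058 and 316 to 4907 CPM, that of the endothelial and blood list 3.66 to 4.41 and 4.02 to 5.10 CPM, and that of the neuron and glia list 112 to 237 and 161 to 418 CPM. In the last, 1 of 3 genes tested was called (33.3%, against 7.93% of all genes). That gene was Tubb3, a tubulin that dividing and differentiating cells also express. It was higher, at 182, 154 and 62.0 CPM against 325, 319 and 99.8 CPM (log2 fold 0.86 ± 0.15, SE, edgeR adjusted p = 0.0140). The part of these markers in the differences above was not tested. The call of Lpl ended without a knockdown library of day 0 or day 3, and that of Tubb3 without the Cry1 knockdown of day 0 or day 3 or the Cry2 knockdown of day 3 or day 5 (adjusted p up to 0.0908).

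The 6 libraries also differed in mitochondrial transcripts, which held 0.921% to 2.21% of counts. The Cry2 knockdown at day 0 held mt-Co2, mt-Co3 and mt-Atp6 at 611, 561 and 513 CPM, against 3.71 to 12.9 CPM in the other 5 knockdown libraries. Not all mitochondrial genes followed at day 0: mt-Nd1 was at 1322 CPM there and 1504 CPM in the Cry1 knockdown at day 0, and mt-Cytb at 1769 and 1843 CPM. Over the 3 days, all 12 mitochondrially encoded genes tested had a fold above 0 (median 0.34). Within days 0, 3 and 5, 7, 11 and 11 of them were higher in the Cry2 knockdown. Only mt-Atp8 was called (8.33%, near the 7.93% of all genes). Almost all 50-base words of mt-Co2, mt-Co3 and mt-Atp6 (100%, 99.9% and 99.5%) occur in nuclear gene models. With mitochondrially encoded genes and pseudogenes left out before fitting, 1195 genes were called in place of 1038.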

How the data were processed

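Gene counts of 9 polyA RNA libraries of C2C12 cells were used: 3 genotypes (Cry1 knockdown, Cry2 knockdown, control) at 3 days, with 1 library for each. The deposited counts are raw and whole. Per the submitters' processing notes, CASAVA 1.8, HISAT2 2.0.2 and featureCounts 1.4.6 of the Subread package were used, with the mouse build mm10. Settings for reads that match several genes are not given in the sources used here. The library kit does not keep strand, per the labels' protocols, so overlapping genes on opposite strands cannot be told apart. The files held 47728 genes, 23515 of them with a count, and totals were 4731020 to 6412279 counts.

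From the counts, edgeR 4.0.16 (R 4.3.3, limma 3.58.1) fitted genotype plus day over all 9 libraries with TMM scaling, filterByExpr and the quasi-likelihood F test, leaving 4 residual degrees of freedom. P-values were adjusted by Benjamini and Hochberg over all genes tested, with a threshold of 0.05. The contrast was the Cry2 minus the Cry1 knockdown, and a standard error (SE) is the fold divided by the root of its F. A second fit over 13608 genes tested whether that difference changed from day 0 to days 3 and 5, with 2 residual degrees of freedom. Log2 ratios within a day used a prior count of 1 and have no test. CPM values are TMM-scaled, and levels per kilobase use GENCODE exon lengths of mm10. Because p-values measure the disagreement between days, and nothing in the labels gives separate cultures, they do not cover the spread between cultures of 1 condition. Both fits were also run on simulated counts. Apart from planted changes these had no course over the days, unlike the real counts, so no conclusion is drawn from them.

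Alternatives were RLE scaling, no filter, a filter of 1 CPM in 3 libraries, DESeq2 1.42.0, the 6 knockdown libraries only, no day term, each day or library left out, and the removal of mitochondrially encoded genes and pseudogenes. Pairing comes from the day, which each genotype shares. The genes named were both targeted genes, those of the series title and a paralog, the 14 largest rises and 14 largest falls with a mean of at least 1 CPM and the same sign on all 3 days, leaving out unnamed gene models, up to 6 members of each of 34 lists, and the 6 largest changes with day in each direction. Some genes that this rule names are not reported here. Beyond these, further members called in a list (among them Cryab, Col1a2, Col4a1, Col4a2, Timp2, Asph and Jph1) and other genes such as Des, Nras, Asns, mt-Nd1 and Gm10123 were chosen after their values were seen. The members and lists were chosen with earlier results of these data known. Figures were drawn with Python 3.11.15 and matplotlib 3.10.9, and exact intervals computed with scipy 1.17.1.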

Additional observations from a re-analysis of the deposited data

Results flagged for a closer look

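In 15 genes the difference between the knockdowns itself changed from day 0 to days 3 and 5 (edgeR quasi-likelihood interaction test, adjusted p under 0.05), and each value below is that change on the log2 scale, Cry2 minus Cry1 knockdown. In 5 mitochondrially encoded genes the Cry2 knockdown of day 0 was far above every other library, so the change was -11.94 for mt-Nd3, -7.94 for mt-Nd4l, -6.60 for mt-Co2, -6.57 for mt-Atp6 and -6.56 for mt-Co3. The SE was 0.35 for mt-Co2. For mt-Nd3 the Cry1 knockdown and the control of day 0 held 0 counts, so its fitted value depends on the prior count and is no measured size; the log2 ratios within days 0, 3 and 5, with a prior count of 1, were 8.02, -0.49 and -0.94. In that library mt-Nd3 was at 44.1 CPM and mt-Nd4l at 54.6 CPM, against at most 1.77 CPM in all others. Only mt-Co2, mt-Atp6 and mt-Co3 kept the call in all 7 fits without 1 library that could be made. Fits without a knockdown library of day 0 cannot estimate the change.

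Among the other genes whose Cry2 knockdown moved from above to below or level were Gm13827 (-7.31), Gm10268 (-3.96), Gm3362 (-2.94) and Orai2 (-2.05). Orai2, a subunit of store-operated calcium channels, was at 15.6, 28.3 and 41.5 CPM in the Cry1 knockdown on days 0, 3 and 5, and at 40.5, 19.5 and 24.2 CPM in the Cry2 knockdown. The Cry2 knockdown of Orai2 was thus the higher at day 0 and the lower later. Gm13827 was at 32.3, 17.0 and 76.1 CPM in the Cry1 knockdown and at 58.0, 0.635 and 0.378 CPM in the Cry2 knockdown. Gm3362 was low only in the Cry1 knockdown and the control of day 0, at 10.97 and 30.6 CPM, against 83.9 to 105 CPM elsewhere.

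The change was upward for Gm15710 (4.80), Rbm24 (3.15), Rpl31-ps14 (2.41), C1qtnf3 (2.18), Myog (1.84) and Mymk (1.62). C1qtnf3, a secreted protein of the C1q and TNF family, was at 79.0, 943 and 744 CPM in the Cry1 knockdown and at 33.6, 1940 and 1342 CPM in the Cry2 knockdown. It was lower at day 0 and higher at days 3 and 5, the control being at 37.8, 826 and 738 CPM. Gm15710 stood at 123 CPM in the Cry1 knockdown of day 0 and at 3.02 to 5.93 CPM in all other libraries. Of the 50-base words of Gm15710, Gm10268, Gm3362, Rpl31-ps14 and Gm13827, 91.5%, 76.9%, 75.5%, 54.1% and 31.9% occur in other genes. None of these 10 genes kept the call in all 7 fits: Gm13827, Gm3362 and Rbm24 lost it without either knockdown library of day 5, and the others without those of day 3 or day 5, Rpl31-ps14 also without the control of day 0.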

How the results depend on the processing

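The comparison of the knockdowns called 1038 genes, and 1045 with RLE scaling, 1018 with the filter of 1 CPM, 808 with 6 libraries, 1528 without a filter and 1195 without mitochondrially encoded genes and pseudogenes. DESeq2 called 660. Without the pairing by day (no replicate block), edgeR called 0 genes, with 567 at an unadjusted p under 0.05, and all 97 named calls that it tested were lost. Without day 0, 3 or 5, 508, 126 and 229 genes were called, of which 54.9%, 69.0% and 62.0% were higher in the Cry2 knockdown, against 53.5%. Leaving out 1 library gave 258 (Cry1 knockdown of day 3) to 1137 (control of day 3), and 58.9% to 63.3% of calls were higher without a day 3 library of a knockdown. The change after day 0 called 15 genes, 133 without a filter, 46 with DESeq2, 82 with 6 libraries, 0 without mitochondrially encoded genes and pseudogenes, and 3 (without the Cry2 knockdown of day 5) to 180 (without the control of day 3) in fits without 1 library. The causes were not tested.

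Of the 107 named genes called, DESeq2 lost 29, the fit of 6 libraries 21, RLE scaling 0 and the fit without mitochondrially encoded genes and pseudogenes 0 of the 106 it held. The folds that turned were all uncalled. Cd68 (0.14) was -0.26 without the Cry1 knockdown of day 5, with up to 0.40 in other such fits. Cebpb (-0.04) was 0.093 without day 3 and ranged from -0.34 to 0.17 without 1 library. Rbl2 (-0.08) was 0.013 without day 5 and ranged from -0.18 to 0.040. Sox9 (-0.03) was 0.10 without day 3 and ranged from -0.13 to 0.11. With a prior count of 5, 50 of the log2 ratios within a day moved and 607 did not. Depth limits genes near 3 counts, and 1 library for each genotype and day limits all tests.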

Other observations

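A few groups of genes outside the lists above were described after their values were seen, so their counts support nothing beyond these libraries. Of 45 lysosomal genes, 11 were called higher in the Cry2 than in the Cry1 knockdown and none lower (24.4%, against 7.93% of all genes), and 41 had a fold above 0 with a median log2 fold of 0.18. Ctsb, the protease cathepsin B, was at 678, 604 and 737.5 CPM in the Cry1 knockdown and 936, 1008 and 1048 CPM in the Cry2 knockdown on days 0, 3 and 5, without overlap (log2 fold 0.57 ± 0.09, SE, edgeR adjusted p = 0.00806). Ctsd, cathepsin D, was at 458.5, 772 and 903 CPM against 678, 1067 and 1214 CPM, higher within each day. Of the 11 calls, 0 remained without the Cry1 knockdown of day 3, 5 without that of day 5 or the Cry2 knockdown of day 3 or day 5, 6 without the Cry1 knockdown of day 0, 7 without the Cry2 knockdown of day 0 and 9 to 11 without a control, with an adjusted p of up to 0.169.

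Of 55 genes of ribosome biogenesis, 18 were called lower and none higher (32.7%, median -0.31), with 5 folds above 0. Polr1b, a subunit of RNA polymerase I, was at 37.4, 36.1 and 40.6 CPM in the Cry1 knockdown and 24.4, 26.7 and 27.2 CPM in the Cry2 knockdown, without overlap (log2 fold -0.54 ± 0.10, SE, edgeR adjusted p = 0.0183). Between 2 and 6 of the 18 calls remained without any 1 knockdown library, and 8, 15 and 8 without the control of day 0, 3 or 5. Of 7 host RNAs of small nucleolar RNAs, 6 were called lower and none higher (85.7%, median -0.70). Gas5 was at 29.5, 32.9 and 37.6 CPM against 19.7, 16.5 and 18.1 CPM, without overlap, and Zfas1 at 55.9, 46.1 and 69.4 CPM against 36.2, 33.2 and 50.3 CPM, lower within each day. Their log2 folds were -0.87 ± 0.15 and -0.52 ± 0.08 (SE, edgeR adjusted p = 0.0112 and 0.00790). Zfas1 alone of the 6 held without each library, 1 to 3 of the calls remaining without a knockdown library and 4 or 6 without a control.

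Of 17 S100 and annexin genes, 6 were called higher and none lower (35.3%, median 0.17): Anxa1, Anxa3, S100a4, S100a16, S100a13 and S100a6. Anxa1, a calcium-dependent membrane-binding protein, was at 730, 478 and 269 CPM in the Cry1 knockdown, 1037, 788 and 390 CPM in the Cry2 knockdown and, in the control, 950.5, 648 and 358 CPM. It was the one that held without each library (log2 fold 0.59 ± 0.08, SE, edgeR adjusted p = 0.00468). Between 1 and 4 of the 6 calls remained without a knockdown library, and 3, 6 and 3 without the control of day 0, 3 or 5.

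Single genes were also chosen by low p after their values were seen. They held without each library, which such a choice favours, so this adds no separate support. Shc1, an adaptor of receptor tyrosine kinases, was at 80.6, 75.8 and 79.5 CPM in the Cry1 knockdown, 183, 151 and 138 CPM in the Cry2 knockdown and, in the control, 184, 153 and 160 CPM (log2 fold 0.99 ± 0.09, SE, edgeR adjusted p = 0.00126). Pcgf3, a Polycomb group ring finger protein, was at 57.8, 67.8 and 86.3 CPM against 110.6, 136 and 147 CPM, and at 123, 160 and 170 CPM in the control. In both genes the Cry1 knockdown lay below all other libraries. Prag1, a pseudokinase, went the other way, at 23.1, 56.5 and 82.3 CPM against 5.33, 21.0 and 28.5 CPM (log2 fold -1.63 ± 0.14, SE, edgeR adjusted p = 0.00126).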
